A study of Mus musculus with 2 samples.

Results

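The genes of DNA replication and cell division described here are 43 genes that copy the genome, supply its nucleotides, drive the cell cycle or carry out mitosis. They were chosen by name, as the probe sets whose platform gene symbol is one of the 43. Earlier results of these data were known when they were chosen. A probe set for that symbol alone was found for 42 of them, out of 18193 genes measured in all, and Ccnb1 was not analysed here. By role, 19 of the 42 measured genes act in replication, 12 in mitosis, 7 are cyclins and kinases of G1 phase, 3 supply nucleotides and 1, Polh, copies past damaged DNA. RNA came from whole pancreas of male C57BL/6J offspring at 10 weeks of age. Between embryonic days 12.5 and 14.5 the dams ate a control diet or one deficient in threonine, an essential amino acid. After weaning at 3 weeks both groups of offspring ate the control diet. Each group was 1 pool of RNA on 1 Affymetrix Mouse Genome 430 2.0 array, and how many animals went into a pool is not stated in the labels. With 1 array per group no value has a replicate and no test between diets was possible, so every difference is between these 2 pools.

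A dividing cell first commits itself in G1, when D-type cyclins with CDK4 and CDK6, then cyclin E with CDK2, release E2F transcription factors from the retinoblastoma proteins. E2F factors raise transcription of the replication genes, and genes of G2 and mitosis are switched on later through a promoter element called the cell cycle genes homology region (CHR) and nearby NF-Y boxes. In resting cells the DREAM complex holds both sets of genes down. Most acinar cells of the adult pancreas do not divide, so transcripts of mitosis are scarce there, whereas several replication proteins also serve DNA repair and are made in resting cells.

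Promoter sequences differed between these roles. RefSeq promoter windows of assembly GRCm38.p6, each 300 bases long and running from 250 bases before to 50 after a transcription start, were matched by symbol for 35 of the 43 genes. An E2F motif (TTTCGCGC, TTTGGCGC, TTTCCCGC or TTTGCCGC, on either strand) was present in a window of 8 of 16 replication genes and 1 of 10 mitosis genes, against 3.81% of 14452 genes on the array. The CHR motif (TTTGAA, either strand) showed the opposite pattern, with 8 of 10 mitosis genes and 2 of 16 replication genes against 15.7% of all genes. The NF-Y box (CCAAT, either strand) was present in 9 of 10 mitosis genes and 11 of 16 replication genes, and in 42.0% of all genes. No E2F match overlapped a CHR match, while 2 pairs of E2F matches in these genes overlapped each other. A match is a run of letters and was not tested as a binding site.

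**Figure D1:**
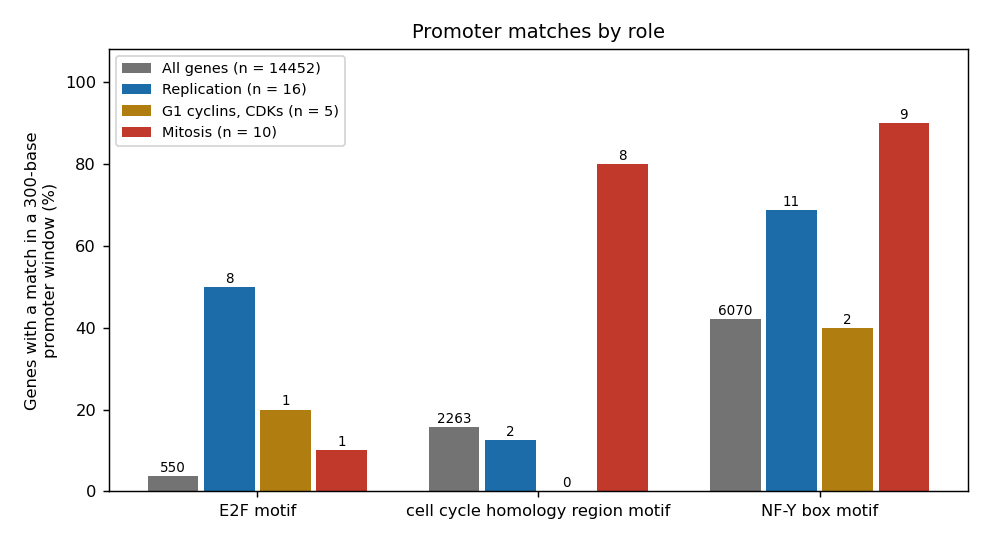
Share of genes (%, vertical axis from 0) with at least 1 motif match in a 300-base RefSeq promoter window, for all array genes and for 3 roles, with the number of matching genes above each bar. E2F motifs were most frequent in the replication genes (8 of 16) and CHR motifs in the mitosis genes (8 of 10).

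7 of these promoters are printed because they show both arrangements, from 200 bases before to 30 after the start, on the strand of the gene. Capitals mark the E2F motif in Mcm5 and Mcm6, helicase subunits, and the CHR motif in the mitosis genes Cdc20, Mki67, Top2a and Ccnb2. Cdk1, the kinase that starts mitosis, held both, and its capitals mark both. The windows are at chr8:75109309-75109538 on the plus strand for Mcm5 and, on the minus strand, at chr1:128359676-128359905 for Mcm6, chr4:118437314-118437543 for Cdc20 and chr7:135716350-135716579 for Mki67. On the minus strand too, Top2a lies at chr11:99024160-99024389, Ccnb2 at chr9:70421525-70421754 and Cdk1 at chr10:69352883-69353112.
Mcm5: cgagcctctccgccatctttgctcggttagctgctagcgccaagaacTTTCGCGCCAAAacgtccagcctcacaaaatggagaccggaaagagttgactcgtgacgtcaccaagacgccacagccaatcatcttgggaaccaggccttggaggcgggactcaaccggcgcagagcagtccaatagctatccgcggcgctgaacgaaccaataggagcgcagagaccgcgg
Mcm6: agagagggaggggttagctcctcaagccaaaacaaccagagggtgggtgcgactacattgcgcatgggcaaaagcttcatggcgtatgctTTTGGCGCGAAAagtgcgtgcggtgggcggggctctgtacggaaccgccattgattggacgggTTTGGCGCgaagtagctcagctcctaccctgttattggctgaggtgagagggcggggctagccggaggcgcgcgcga
Cdc20: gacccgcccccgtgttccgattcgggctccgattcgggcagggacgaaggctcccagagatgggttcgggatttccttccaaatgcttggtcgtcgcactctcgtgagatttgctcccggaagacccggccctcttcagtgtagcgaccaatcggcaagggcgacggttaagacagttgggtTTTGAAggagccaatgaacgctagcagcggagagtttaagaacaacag
Mki67: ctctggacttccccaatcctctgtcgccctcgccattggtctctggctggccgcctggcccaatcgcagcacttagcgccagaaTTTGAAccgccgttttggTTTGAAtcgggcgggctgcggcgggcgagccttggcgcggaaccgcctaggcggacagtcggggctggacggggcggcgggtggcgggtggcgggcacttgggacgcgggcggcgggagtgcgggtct
Top2a: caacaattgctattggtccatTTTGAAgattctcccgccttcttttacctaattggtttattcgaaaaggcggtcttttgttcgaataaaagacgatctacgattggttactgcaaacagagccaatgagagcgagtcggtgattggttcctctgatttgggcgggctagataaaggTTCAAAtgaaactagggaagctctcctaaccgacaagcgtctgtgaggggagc
Ccnb2: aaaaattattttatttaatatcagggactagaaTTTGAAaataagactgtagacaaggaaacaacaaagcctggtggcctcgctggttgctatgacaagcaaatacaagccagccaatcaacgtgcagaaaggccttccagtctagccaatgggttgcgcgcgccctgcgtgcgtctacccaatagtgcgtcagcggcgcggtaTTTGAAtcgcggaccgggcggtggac
Cdk1: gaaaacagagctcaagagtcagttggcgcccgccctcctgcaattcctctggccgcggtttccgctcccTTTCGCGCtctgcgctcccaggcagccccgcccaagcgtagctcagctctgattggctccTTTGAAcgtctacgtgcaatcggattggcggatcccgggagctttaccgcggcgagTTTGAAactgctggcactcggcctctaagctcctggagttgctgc
The 2 E2F matches of Mcm5 overlap and begin 153 and 149 bases before the start. In Mcm6 the overlapping pair begins 110 and 106 bases before the start and the third 47 bases before it. CHR matches began 18 bases before the start in Cdc20, 23 and 179 in Top2a, and 15 and 71 in Cdk1, whose E2F match began 131 bases before it.

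The deposited values are MAS5 signals, a linear brightness per probe set after each array has been scaled as a whole. The median over all probe sets other than controls was 164.7 for the control pool and 183.8 for the other. A signal was called above the floor when it exceeded 264.9, the 60th percentile of the array where that percentile was higher, and lower signals were raised to it before log2 was taken. The floor stands in for a detection call, so below it a transcript may be present but was not read. All 8 measured acinar markers, among them Cpa1 and Prss2, were above it on both arrays. Among markers of other cells, 6 of 6 measured adipocyte genes were lower in the threonine-deficient pool (summed signal 42481 against 23074), as were 3 of the 5 B and plasma cell genes above the floor (11012 against 5237, with Cd79a below the floor). Of the islet markers 7 of 8 were lower (174798 against 143539). Duct markers went both ways, 3 higher and 1 lower of 4 above the floor (11386 against 11044, with Krt7 and Cftr below it), and Car2 was at least 2-fold higher. All 5 endothelial genes above the floor were higher (2691 against 3461, with Tie1 below it). The ratio of 3′ to 5′ probe sets, a sign of RNA quality, for Gapdh was 0.973 (control) and 0.828 (threonine-deficient), and for actin 1.46 and 1.53. The part of these differences in the values below was not tested. In whole tissue, fewer cells of a type and less RNA per cell cannot be told apart.

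A larger share of the replication and G1 genes than of the mitosis genes was above the floor in adult pancreas. Of the 42 measured genes, 29 were above the floor in 1 pool or both, as were 59.1% of all genes. Both pools were above it for 24 of them, and for 48.6% of all genes. In the replication group 14 of 19 were read in at least 1 pool and 12 of 19 in both. Mitosis genes were read in at least 1 pool in 6 of 12 cases and in both in 3, which were Ccna2, Cdc20 and Ube2c. Of the G1 cyclins and kinases 6 of 7 were above it on both arrays. The difference between replication and mitosis genes was not tested, since genes are not replicates and their probe sets differ in brightness for the same amount of RNA. Each gene was read by its brightest probe set, so a gene with more probe sets had more chances to pass the floor. Mki67, Ccnb2, Cdk1, Plk1, Birc5 and Ube2c had 1 probe set each, as did Pcna, Rfc5, Pole and Lig1 in the replication group. The G1 genes had from 2 to 7.

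**Figure D2:**
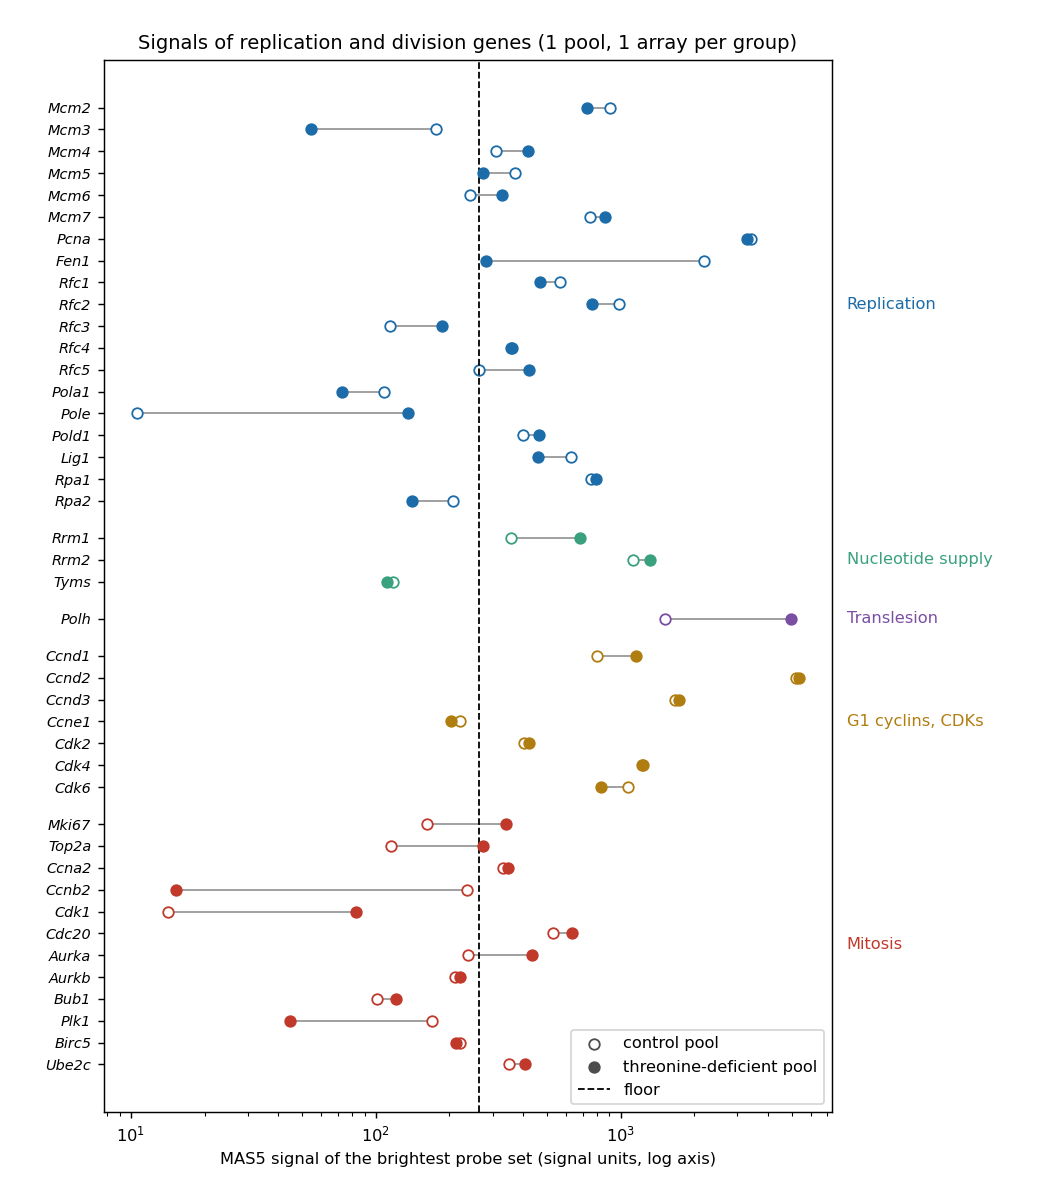
MAS5 signal (signal units, log axis) of the brightest probe set of each of the 42 measured genes in the control pool (open circles) and the threonine-deficient pool (filled circles), with the floor of 264.9 as a dashed line. Of the members above the floor in both pools, Fen1 and Polh lie at least 2-fold apart, and 6 of 12 mitosis genes lie below the floor in both pools.

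The floor changes how many genes are read. With it at the 75th percentile, a signal of 512.2, 8 of 19 replication genes and 1 of 12 mitosis genes, Cdc20, were above it on at least 1 array, against 40.4% of all genes. With the floor at the 50th percentile, a signal of 183.8, the counts were 16 of 19 and 9 of 12, against 70.0% of all genes. The share was lower in the mitosis than in the replication genes at all 3 floors.

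**Figure D3:**
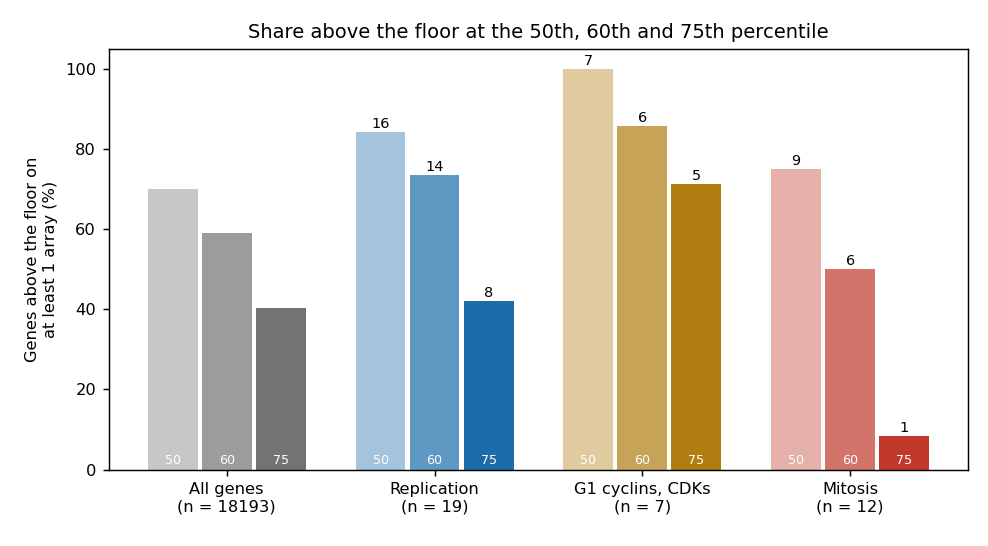
Share of genes (%, vertical axis from 0) above the floor on at least 1 array, with the floor at the 50th, 60th and 75th percentile of signal (numbers in the bars) and the number of genes above each coloured bar. At the 75th percentile 8 of 19 replication genes and 1 of 12 mitosis genes were above it.

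Between the pools, 21 of the 24 members above the floor on both arrays differed by less than 1.5-fold, where 89.8% of all genes read on both did. For the other 5 of the 29 a ratio is a lower bound. The log2 ratio is that of the threonine-deficient over the control pool. In their brightest probe sets 1 gene, Polh, was at least 2-fold higher, where 1.28% of all genes were, and 1, Fen1, at least 2-fold lower, where 0.874% were. Together they are 2 of 29, against 2.16% of all genes at least 2-fold apart. At 1.5-fold, 4 genes were higher (Polh, Rrm1, Aurka and Rfc5), against 7.2% of all genes, and Fen1 alone was lower, against 5.36%. The median log2 ratio was 0.07 over the 29 genes and 0.00 over all 10758 genes above the floor. Since 5 of the 29 were above the floor in the threonine-deficient pool alone, and could only come out higher, the counts by direction say nothing of these genes as a group.

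Fen1 encodes the flap endonuclease that trims the ends of Okazaki fragments before they are joined. Its brightest probe set had a signal of 2196 in control and 282 in threonine-deficient RNA, a log2 ratio of −2.96 or 7.78-fold lower. This was the lowest ratio of all 10758 genes, and the local spread, a scaled median absolute deviation of the ratios of 500 genes of like signal, was 0.35. The other probe set of Fen1 went the opposite way, from 457 to 651, a log2 ratio of 0.51. The gap of 3.47 between these probe sets was the widest of 4251 genes with at least 2 probe sets above the floor. With the median over both probe sets the ratio was −1.23, after adding the floor to every signal as a pseudocount −2.17, and with the floor at the 75th percentile −2.10 as a bound. Both carry a suffix that marks probes possibly shared between transcripts, _x_at in the brightest probe set and _a_at in the other. Without such probe sets Fen1 therefore had no value.

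Polh encodes polymerase eta, which copies past ultraviolet damage that stops the replicative polymerases. Its brightest probe set went from 1513 to 4989, 3.30-fold higher. The log2 ratio of 1.72, where the local spread was 0.22, was number 5 from the top of 10758 genes. Its 3 other probe sets read from 51.9 to 102.7 in control RNA and from 9.6 to 97.0 in threonine-deficient RNA, below the floor in both. The bright probe set ends in _x_at, and without it, or with the median over probe sets, Polh was below the floor. Among the 489 genes read by an _x_at probe set 3.27% were at least 2-fold apart, against 2.15% of the 7904 read by a probe set with no suffix. For the 1653 genes read by an _a_at probe set, the suffix of the other Fen1 probe set, the share was 2%. The calls on Fen1 and Polh therefore each rest on 1 probe set that another reading of the gene did not share.

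The MCM proteins form the ring-shaped helicase that unwinds DNA ahead of the fork. Mcm2 went from a control signal of 903 to 729, with a log2 ratio of −0.31 and −0.02 in its other probe set. Mcm7 went from 754 to 864, a log2 ratio of 0.20, and its 3 other probe sets gave 0.41, 0.03 and, as a bound from the floor, 0.67. Mcm7 was thus higher in each probe set above the floor on both arrays, while the remaining one could only come out higher. All 4 carry a suffix. Those above the floor on both arrays were each less than 1.5-fold apart. Mcm4 went from 310 to 420 (0.44) and Mcm5 from 371 to 275 (−0.43), with 0.13 in the other probe set of Mcm5. Mcm6 was above the floor in the threonine-deficient pool alone, from 244 to 327, at least 1.23-fold higher. Mcm3 lay below the floor in all 5 of its probe sets. The subunits did not shift together in 1 direction.

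Pcna, the sliding clamp that holds polymerases to DNA at the fork, had signals of 3420 and 3272, a log2 ratio of −0.06. The clamp loader subunits gave −0.27 for Rfc1 (565 to 470), −0.36 for Rfc2 (982 to 764) and −0.01 for Rfc4 (360 to 357). Rfc1 had 0.07 and 0.26 in its other probe sets. Rfc5 went from 263 to 423, at least 1.60-fold higher because the control signal lay just under the floor, and Rfc3 was below it on both arrays. Loader subunits work as 1 complex. Here Rfc1 and Rfc4 lay within their local spreads of 0.51 and 0.74, and Rfc2 just outside its spread of 0.35. No shared direction of the subunits can be read from these values.

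Of the replicative polymerases, 1 of 3 was above the floor. Pold1, the catalytic subunit of polymerase delta, which makes most of the lagging strand, went from 401 to 463 (0.21, and 0.14 as a bound in its other probe set). Pola1, which starts each strand, and Pole, which copies the leading strand, were below the floor on both arrays. Lig1, the ligase that seals Okazaki fragments, went from 628 to 460 (−0.45), within its local spread of 0.47. Rpa1, the large subunit of the protein that coats single-stranded DNA, went from 760 to 796 (0.07, and 0.43 in its other probe set), and Rpa2 was below the floor. Across the 5 replication genes below the floor, control signals ran from 10.6 to 206.3 and threonine-deficient signals from 54.5 to 186.1.

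Ribonucleotide reductase makes the deoxynucleotides for replication, and among members above the floor on both arrays its large subunit had the highest ratio after Polh. Rrm1 went from 357 to 686, 1.92-fold higher, or 0.94 on the log2 scale, with a local spread of 0.49. A further probe set went the same way, from 287 to 442 (0.62), and the last was below the floor. With the floor at the 75th percentile the ratio of Rrm1 was 0.42, a bound. Rrm2, the small subunit that limits the enzyme in cycling cells, went from 1119 to 1314 (0.23), but its other probe sets gave −0.36 and −0.15. Tyms, which makes thymidylate, was below the floor in 4 of 4 probe sets of its own. Probe sets above the floor thus had a like sign for Rrm1 and mixed signs for Rrm2, whose ratio lay within its local spread of 0.30. Whether the subunits differed was not tested.

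**Figure D4:**
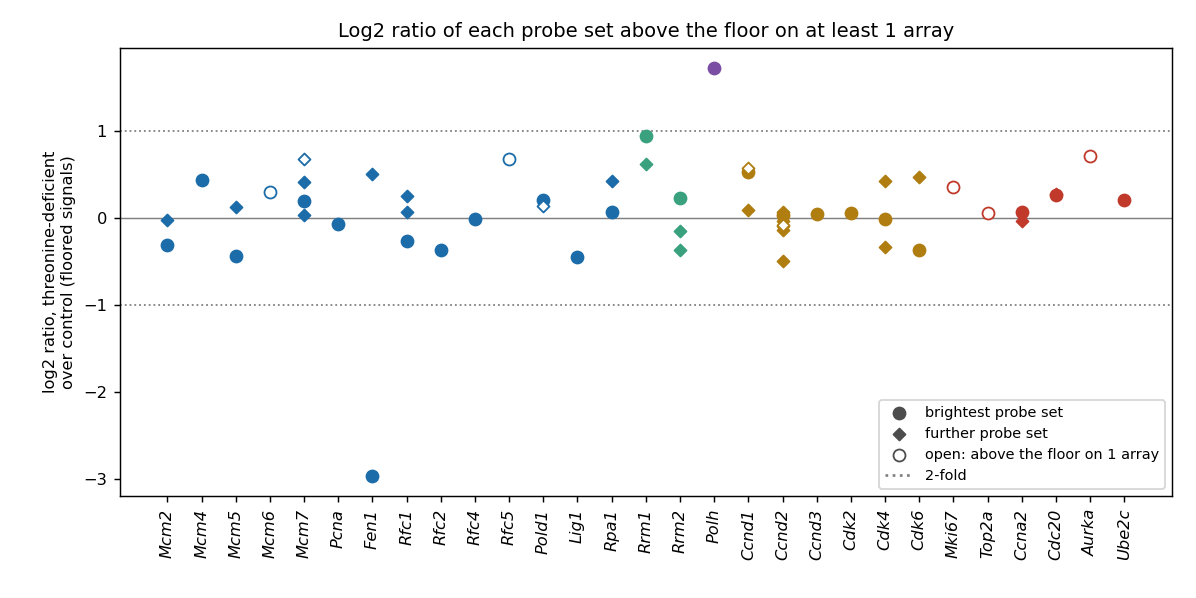
Log2 ratio of the threonine-deficient over the control pool (vertical axis, floored signals) for each probe set above the floor on at least 1 array, for the 29 members read, coloured by role; circles are the brightest probe sets, diamonds further ones, and open symbols were above the floor on 1 array. Fen1 spans −2.96 to 0.51, Polh has a single point at 1.72, and Rrm1 has 0.94 and 0.62.

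G1 cyclins and their kinases read close to equal. Ccnd2, a D-type cyclin that beta cells use, had signals of 5205 and 5352, a log2 ratio of 0.04, and its 7 probe sets ranged from −0.49 to 0.07. Ccnd3 went from 1676 to 1735 (0.05). Ccnd1 went from 799 to 1155 (0.53), with 0.09 and, as a bound, 0.58 in its other probe sets. It was the G1 member with the highest ratio. Both of its probe sets above the floor on both arrays were higher, and the one given as a bound could only come out higher. Cdk4, the partner kinase of the D cyclins, had 1232 and 1227 (−0.01), although its other probe sets gave −0.33 and 0.43. Cdk6 went from 1074 to 831 (−0.37) in its brightest and from 539 to 748 (0.47) in a further probe set. Cdk2 had 404 and 421 (0.06), and its partner Ccne1, cyclin E, was below the floor with 220 and 203. None of the 6 above the floor differed by 1.5-fold in its brightest probe set.

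Mitosis genes above the floor on both arrays differed little. Cdc20, the activator of the ubiquitin ligase that ends mitosis, went from 529 to 634 (0.26), with 0.28 in a further probe set. Ube2c, the ubiquitin-conjugating enzyme of that ligase, went from 350 to 405 (0.21). Ccna2, cyclin A of S and G2 phase, had 331 and 348 (0.07), and −0.03 in its other probe set. These are small next to the local spreads, which were 0.40, 0.71 and 0.72.

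Another 3 mitosis genes were above the floor in the threonine-deficient pool alone. Mki67, the Ki-67 antigen used to stain cycling cells, had 162 and 340, at least 1.28-fold higher. Top2a, the topoisomerase that untangles sister chromosomes, had 115 and 275 in its brightest probe set, at least 1.04-fold higher. Its other probe sets, below the floor on both arrays, read 138 and 85.9 in one case and 20.4 and 97.4 in the other. Aurka, a kinase of the spindle poles, had 239 and 434, at least 1.64-fold higher, and its other probe set was below the floor on both arrays. These genes were read only because 1 pool was high, so their direction follows from how they passed the floor. Of all genes above the floor on 1 array alone, 1158 were so in the threonine-deficient and 766 in the control pool. With no floor the log2 ratios were 1.07 for Mki67 and 1.25 for Top2a, and both would count as 2-fold higher. They are 2 of the 5 members read on 1 array alone, where 48% of all such genes were at least 2-fold apart.

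The remaining 6 mitosis genes were below the floor on both arrays. They are Ccnb2, a B-type cyclin, Cdk1, the kinases Aurkb, Bub1 and Plk1, and Birc5, survivin of the chromosomal passenger complex. Their control signals ran from 14.1 to 235.9 and their threonine-deficient signals from 15.2 to 221.4. Ccnb2 read 236 and 15.2 and Plk1 169 and 44.6, lower in the threonine-deficient pool, whereas Cdk1 read 14.1 and 82.7, higher there. Values of this size have no order under the floor used. The promoters of Ccnb2, Plk1 and Cdk1 hold a CHR motif, as do those of Mki67, Top2a and Aurka, so genes with that motif were read on both sides of the floor. Of the mitosis genes with a promoter window, 5 of 5 above the floor and 3 of 5 below it held the motif. This split was not tested.

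As a group, replication genes had a median log2 ratio of −0.04 over the 14 above the floor on at least 1 array, from −2.96 to 0.67, with 6 higher and 8 lower. The G1 group had a median of 0.04 over 6 genes. The 6 mitosis genes had a median of 0.24, of which 3 passed the floor in 1 pool alone. Over all 12 measured mitosis genes, with those below the floor counted as equal, the median was 0.03, and over all 19 replication genes it was 0.00. No difference in ratio between replication and mitosis genes can be read from these medians, because 6 of the 12 mitosis genes were not read.

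Probe sets of the same gene give the nearest thing to a repeat reading here, and cover probe and hybridisation noise only. For 15 members at least 2 probe sets were above the floor. The brightest pair had the same sign in 8 of these genes, where 52.1% of 4251 genes did. Their median absolute difference was 0.33 on the log2 scale, against 0.32 over all genes. Of the 29 members above the floor, 19 had a ratio within their local spread, as did 62.7% of all genes.

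None of the 55 other genes of these pathways above the floor on both arrays was 2-fold apart in its brightest probe set. Of all 8834 genes above the floor on both, 123 were 2-fold apart. Another 19 of the pathway genes were above the floor on 1 array, where ratios are bounds. Without the floor 9 of these were at least 2-fold apart, 5 higher and 4 lower, against 48% of all genes read on 1 array. Of 41 further replication genes measured, such as origin, primase and polymerase subunits, 27 were above the floor on at least 1 array. This is 65.9%, against 59.1% of all genes. Their median log2 ratio was 0.04, with 16 higher and 11 lower. Their extremes were Prim1, the primase that lays down RNA primers (363 to 566, 0.64), and Pold2, an accessory subunit of polymerase delta (1445 to 783, −0.88). Of 48 further mitosis genes 27 were above the floor, or 56.25%, with a median of −0.01, 13 higher and 14 lower. Nek2, a centrosome kinase, was at least 1.98-fold higher (246 to 525), and Cdc23, a subunit of the anaphase-promoting complex, at least 1.62-fold lower (428 to 204).

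A further list held brakes of the cycle, the E2F and retinoblastoma families, and Lin9, Lin54, Mybl2 and Foxm1. Of its 22 genes 14 were above the floor (63.6%, against 59.1% of all genes). Their median was −0.17, with 3 higher and 11 lower. Among the 9 above the floor on both arrays 1 was higher and 8 were lower, where 52% of all genes read on both were lower. Foxm1 was 1 of the 8, with near equal signals (9142 and 9028, −0.02). The lowest was Cdkn1b, the CDK inhibitor p27 that holds cells in G1 (2213 to 1441, −0.62), although its other probe set went the opposite way (349 to 543, 0.64). The highest was Mybl2, an activator of mitosis genes (236 to 373, at least 1.41-fold higher). Of 10 further translesion and repair genes 6 were above the floor, or 60%. Ratios ran from −0.05 for Polb, the polymerase of base excision repair, to a bound of 0.45 for Polk, a relative of Polh. Other probe sets of these genes gave −0.78 for Polb (921 to 537) and a bound of −0.17 for Polk (298 to 220).

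**Figure D5:**
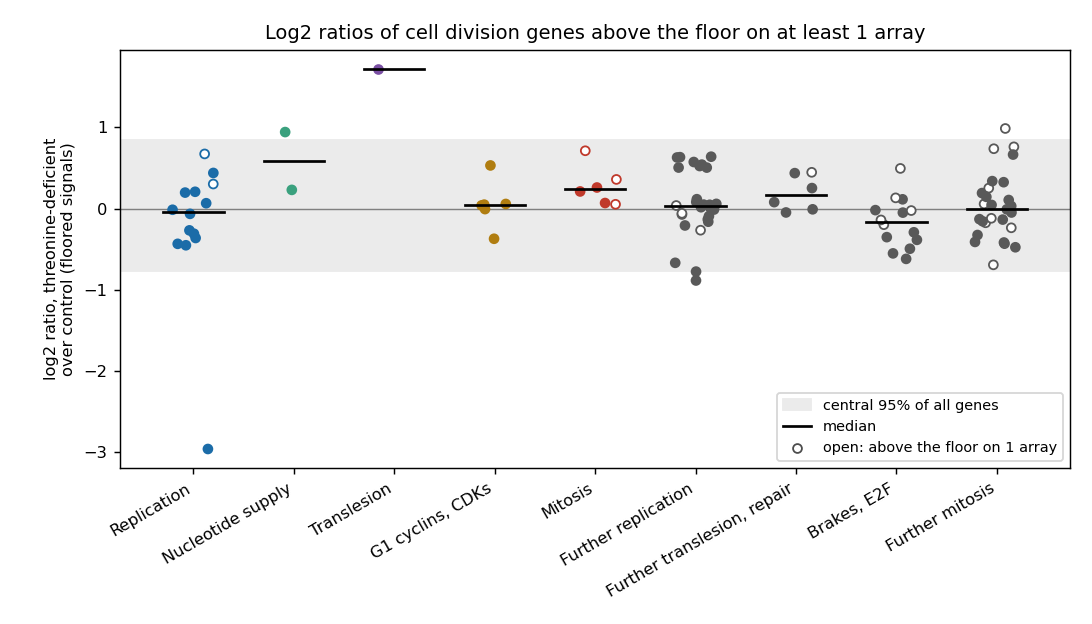
Log2 ratio of the threonine-deficient over the control pool (vertical axis, floored signals) of the brightest probe set of each gene above the floor on at least 1 array, by role; black bars are medians, open circles were above the floor on 1 array, and the grey band holds the central 95% of all genes, from −0.77 to 0.84. Fen1 (−2.96) and Polh (1.72) stand far outside the band.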

How the data were processed

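The authors deposited 1 table of linear signal intensity per probe set, made with MAS5 per the submitters' processing notes, for 2 arrays; the version and a genome build are not given in the sources used here. The trimmed mean, with 2% of values removed at each end, was 500.0 on both arrays, so ratios compare shares of an array's signal and a difference in total mRNA cannot be seen. Of 45101 probe sets, 64 were controls, 34945 carried 1 gene symbol, 932 several and 9160 none; through gene identifiers 34741 matched a RefSeq table of assembly GRCm38.p6. Each gene was read by its probe set of highest mean log2 signal (Python 3.11.15, pandas 2.3.3). Pathway genes were named when at least 2-fold apart, or otherwise as the highest and lowest ratio of their list. The members and lists were chosen with earlier results of these data known. The alternatives were median and loess centring, a pseudocount in place of the floor, a floor at the 50th or at the 75th percentile, none at all, the median over probe sets, and leaving out suffix probe sets. The code was tested on simulated data. The number of arrays limits the precision.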

Additional observations from a re-analysis of the deposited data

How the results depend on the processing

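Of 8 alternatives, centring on the median and removing a loess trend left the counts and group medians within 1.5-fold or 0.1 log2. So did the pseudocount and the floor at the 50th percentile. With no floor 3 members were at least 2-fold higher, as were 659 of all 10758 genes, and the mitosis median was 0.56. With the floor at the 75th percentile 17 members were above it, 8 of them replication and 1 a mitosis gene, and the replication median was −0.22. Without suffix probe sets 0 members were at least 2-fold higher and 0 lower, and with the median over probe sets 0 were higher; in both cases Polh was then read below the floor, and Fen1 has no probe set without a suffix. Of 209 single-gene values, 193 moved by less than their local spread and 16 by more. Genes not read above the floor in a setting gave no value there. A reversal was scored for Fen1 and Polh alone, and neither reversed where it was read. Each value of Polh came from the same probe set. Those of Fen1 came from its brightest probe set or from the median over both. Neither call was thus checked against another probe set on its own. Other genes did change sign. Cdk6 went from −0.37 to 0.47 with the median over probe sets. Without suffix probe sets Rrm2 went from 0.23 to −0.36 and Mcm5 from −0.43 to 0.13. No paired analysis was possible because each group has 1 array.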
